A study of Mus musculus with 14 samples.

Results

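The genes of cholesterol and fatty acid synthesis were followed through acute colitis in the mouse colon with and without the epithelial glucocorticoid receptor (GR). The set holds 30 genes defined by their place in the pathway, and it was drawn up with earlier results of these data known. It covers 17 enzymes of cholesterol and isoprenoid synthesis, 6 regulators and sterol carriers, and 7 enzymes of fatty acid synthesis. They are 30 of 15537 genes measured, each read by the probe of its RefSeq accession with the highest mean signal, and all 30 probes were well above background on all 14 arrays. Flox mice carry loxP-flanked alleles of Nr3c1, the gene for GR. GR iKO mice carry the same alleles together with Villin-cre, whose promoter restricts the deletion to the intestinal epithelium, so muscle, stroma and immune cells of the colon keep the gene. All mice were female C57BL/6 on normal chow, 4 to 6 months old. For 7 days they were given either plain drinking water or 2.5% DSS (dextran sulfate sodium), a polymer that damages the lining of the colon. Whole colon RNA was hybridised to 1-colour arrays, 1 array per sample, which gave Flox water (n = 4), Flox DSS (n = 3), GR iKO water (n = 4) and GR iKO DSS (n = 3).

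Cholesterol is built from acetyl-CoA through mevalonate, farnesyl pyrophosphate, squalene and lanosterol, and fatty acids are built from the same acetyl-CoA through malonyl-CoA. Both routes are driven by the sterol regulatory element-binding proteins (SREBPs), membrane-bound transcription factors that the escort protein SCAP carries to the Golgi for cleavage when sterols are scarce. When sterols are plentiful, the INSIG proteins hold SCAP in the endoplasmic reticulum. Colonocytes renew within days and need membrane lipid, so the colonic epithelium expresses much of this machinery.

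Levels below are log2 processed signals after subtraction of each array's own 75th percentile, and differences are log2 differences from limma with their standard errors. A gene was called at a Benjamini-Hochberg adjusted p under 0.05 over all probes tested. Levels of different probes are not compared with each other. The 75th percentile of the processed signal lay between 262 (Flox DSS 4) and 1003 intensity units (Flox water 2). Nr3c1, the targeted gene, had a mean level on water of 1.19 ± 0.14 for Flox against 0.39 ± 0.16 for GR iKO (SD, 4 arrays each), with no overlap (exact two-sided permutation p = 0.0286, the smallest that 4 against 4 allows). On DSS it averaged 1.27 ± 0.20 in Flox and 0.43 ± 0.05 in GR iKO (SD, n = 3 each), again with no overlap (exact two-sided permutation p = 0.1, the smallest that 3 against 3 allows). In limma the water difference was called (adjusted p = 0.00911, and 0.0583 without Flox water 3) and the DSS difference was not (adjusted p = 0.0922, and 0.39 in the other direction with spike-in scaling). The 3 further Nr3c1 probes gave −0.84 to −1.07 on water and −0.40 to −0.86 on DSS. Colonic epithelial markers Epcam and Vil1 were well above background on all 14 arrays. GR iKO DSS 1 and GR iKO DSS 4 stood apart in fat markers, with Plin1 at −4.43 and −5.31 against −2.07 to 0.61 on the other 12 arrays. Within its group GR iKO DSS 3 was low in the proliferation marker Mki67, at 1.78 against 4.01 and 3.94 on the other GR iKO DSS arrays. The Flox DSS arrays lay at 2.66, 2.15 and 2.77, and the water arrays ran from 3.44 to 4.28.

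Promoter sequence was examined because the members share their best-known regulators. RefSeq promoter windows (GRCm38.p6, from 250 bases before to 50 after the start) were matched for 24 of the 30 members, and no window was matched for Fdps, Fdft1, Sqle, Stard4, Scd1 and Scd2. The NF-Y box CCAAT, read on both strands, was present for 20 of 24 members (83.3%), against 41.1% of 27025 genes in the same table. The Sp1 box GGGCGG was present for 19 of 24 (79.2%) against 38.2% of genes, and the E-box CACGTG for 5 of 24 (20.8%) against 8.09%. The sterol regulatory element in the form TCACNCCAC matched 1 member, Hmgcs1 (4.17% of members against 1.44% of genes), and its longer form with an A in front, which overlaps it, matched 0 of 24 members and 0.270% of genes. These matches describe letters in a window and not binding. The windows follow annotated starts, and whether those starts are used in the colon was not tested. The 250 bases upstream of the start are shown, 5′ to 3′ on the gene's strand, for 6 members that fell with DSS in at least 1 genotype and for Acacb, the member with the largest rise. Capitals mark CCAAT or its reverse complement ATTGG and, in Hmgcs1, also TCACNCCAC. The regions are chr13:119690101-119690350 (plus strand) for Hmgcs1, chr5:114444019-114444268 (plus) for Mvk, chrX:72918271-72918520 (plus) for Nsdhl, chr19:6067851-6068100 (minus) for Tm7sf2, chr5:28071162-28071411 (plus) for Insig1, chr11:120824548-120824797 (minus) for Fasn and chr5:114165268-114165517 (plus) for Acacb.
Hmgcs1: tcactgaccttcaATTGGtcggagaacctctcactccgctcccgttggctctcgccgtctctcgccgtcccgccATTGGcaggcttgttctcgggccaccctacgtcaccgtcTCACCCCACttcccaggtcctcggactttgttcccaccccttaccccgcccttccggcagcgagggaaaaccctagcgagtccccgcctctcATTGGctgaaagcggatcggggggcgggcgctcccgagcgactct
Mvk: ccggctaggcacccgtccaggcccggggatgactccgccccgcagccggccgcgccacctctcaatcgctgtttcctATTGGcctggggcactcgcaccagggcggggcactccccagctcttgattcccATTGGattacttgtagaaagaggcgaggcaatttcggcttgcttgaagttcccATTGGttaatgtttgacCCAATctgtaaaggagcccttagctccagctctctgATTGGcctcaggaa
Nsdhl: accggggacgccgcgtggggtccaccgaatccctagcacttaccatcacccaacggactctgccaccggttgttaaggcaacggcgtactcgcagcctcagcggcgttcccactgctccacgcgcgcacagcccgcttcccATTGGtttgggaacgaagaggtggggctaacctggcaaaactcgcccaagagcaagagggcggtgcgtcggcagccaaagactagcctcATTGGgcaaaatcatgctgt
Tm7sf2: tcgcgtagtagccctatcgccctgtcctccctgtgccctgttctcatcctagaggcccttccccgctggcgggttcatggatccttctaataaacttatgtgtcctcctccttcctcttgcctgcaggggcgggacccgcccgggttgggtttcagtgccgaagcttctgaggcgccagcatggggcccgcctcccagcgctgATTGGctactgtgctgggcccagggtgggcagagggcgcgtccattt
Insig1: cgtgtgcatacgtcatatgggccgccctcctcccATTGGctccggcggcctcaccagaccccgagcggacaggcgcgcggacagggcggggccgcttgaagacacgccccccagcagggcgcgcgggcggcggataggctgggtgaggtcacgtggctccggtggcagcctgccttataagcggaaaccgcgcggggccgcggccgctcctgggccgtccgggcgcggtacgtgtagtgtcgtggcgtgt
Fasn: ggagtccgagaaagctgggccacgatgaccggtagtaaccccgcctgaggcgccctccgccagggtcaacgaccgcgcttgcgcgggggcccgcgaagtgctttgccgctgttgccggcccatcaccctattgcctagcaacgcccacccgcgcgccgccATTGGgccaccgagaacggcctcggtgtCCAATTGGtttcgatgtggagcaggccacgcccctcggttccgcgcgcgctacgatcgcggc
Acacb: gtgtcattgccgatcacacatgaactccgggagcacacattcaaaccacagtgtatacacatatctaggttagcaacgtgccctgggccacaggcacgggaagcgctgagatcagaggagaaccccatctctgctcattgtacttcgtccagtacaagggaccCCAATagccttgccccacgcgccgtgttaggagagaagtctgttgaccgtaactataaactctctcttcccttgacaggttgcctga
Mvk carried 5 CCAAT boxes in this stretch, Hmgcs1 and Fasn 3, Nsdhl 2, and Tm7sf2, Insig1 and Acacb 1. In Hmgcs1 the sterol element lay 128 bases upstream of the start, between the CCAAT boxes at 40 and 171 bases. Among the members shown, a CCAAT box was present both in those that fell and in Acacb, which rose. No CCAAT box was found for Scap (called lower with DSS in both genotypes), Acaca (lower in GR iKO), Acat2 (higher in both) and Elovl6 (not called).

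To examine how acute colitis altered lipid synthesis transcripts in the colon, DSS was compared with water in each genotype. In Flox colons 16 of 30 members fell and 3 rose, against 24.4% of the 15537 genes called lower and 24.9% called higher. In GR iKO colons 13 of 30 fell and 3 rose, against 20.1% of genes called lower and 21.6% called higher. The median log2 difference of the members was −0.75 in Flox and −0.62 in GR iKO, where that of all genes was −0.03 and 0.00. Among the 13369 genes as well detected as the members, on all 14 arrays, 25.9% were called lower and 24.8% higher in Flox, and 21.4% and 21.8% in GR iKO. Without regard to calls, all DSS arrays lay below all water arrays for 15 members in Flox (30.8% of genes) and 15 in GR iKO (23.8%), and above them for 3 (29.1%) and 4 (25.4%). The same 12 members fell in both genotypes (40.0% of members, 15.5% of genes): Mvk, Sqle, Tm7sf2, Nsdhl, Dhcr7, Srebf1, Scap, Insig1, Stard4, Acly, Fasn and Scd2. The same 3 rose in both (10.0% of members, 17.1% of genes): Acat2, Insig2 and Acacb, of which the Flox differences and that of Insig2 in GR iKO turned negative when arrays were scaled to spike-in controls, which also ended the GR iKO call of Acat2. Hmgcs1, Idi1, Fdft1 and Lss were called lower in Flox without a call in GR iKO (13.3% of members, 8.92% of genes), and Acaca in GR iKO without a call in Flox (3.33% of members, 4.67% of genes). No member was called in opposite directions (0.0901% of genes), and 10 were called in neither genotype (33.3% of members, 41.6% of genes).

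**Figure D1:**
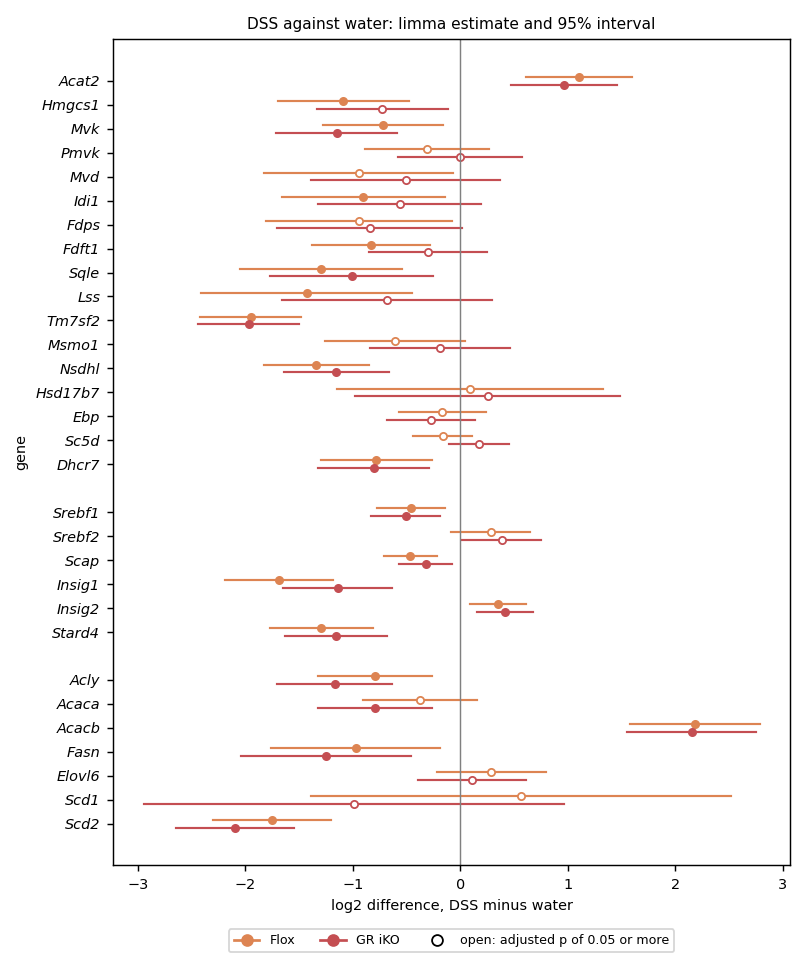
DSS against water for the 30 members, grouped by role. Points are limma log2 differences on the scale of the array's 75th percentile, bars are 95% intervals, and open points have an adjusted p of 0.05 or more. Filled points lie below 0 for 16 members in Flox and 13 in GR iKO and above 0 for Acat2, Insig2 and Acacb, of which the Flox values fell below 0 when arrays were scaled to spike-in controls.

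Scaling to spike-in controls moved the median of all genes to −2.39 in Flox and −0.96 in GR iKO. On that scale 28 members were called lower and 0 higher in Flox (83.9% and 0.901% of genes), and 20 lower and 1 higher in GR iKO (42.5% and 3.11%). The calls rested on 3 DSS arrays per genotype, which differed among themselves. Without Flox DSS 2 the Flox counts were 6 lower and 2 higher (15.6% and 19.5% of genes), with a member median of −0.64. Without Flox DSS 1 they were 8 lower and 2 higher (14.7% and 18.3% of genes), with a member median of −0.60. Without GR iKO DSS 4 the GR iKO counts were 8 lower and 3 higher (16.2% and 17.4% of genes), without GR iKO DSS 1 they were 9 and 2 (17.3% and 19.5%), and without GR iKO DSS 3 they were 9 and 3 (16.6% and 18.9%). The member medians in GR iKO were then −0.76, −0.74 and −0.40. With the slide as a block, the Flox calls of Mvk and Idi1 (adjusted p = 0.0573 and 0.0744) and the GR iKO call of Scap (adjusted p = 0.0589) were lost. A total of 8 Flox calls held whichever array was left out, those of Tm7sf2, Scd2, Insig1, Nsdhl, Stard4, Scap, Acacb and Acat2. In GR iKO 9 calls did so, those of Tm7sf2, Scd2, Acly, Stard4, Nsdhl, Mvk, Insig1, Acacb and Acat2. The share of calls that held in this way was not computed over all genes, so these counts have no background. Flox and GR iKO, on water and on DSS, each kept 1 fixed position on every slide, so the position of an array on the slide and its group cannot be told apart. DSS and water arrays did not overlap for 16 of the 19 Flox calls and 16 of the 16 GR iKO calls. That fixes their sign on every slide, so a comparison within slides adds no separate support for them. Within the 3 slides that held both arms, 17 of the 19 Flox calls and 16 of the 16 GR iKO calls had the same sign on every slide. The exceptions were Dhcr7 and Fasn, which were 0.08 and 0.19 higher in Flox DSS on 1 slide. Because whole colons were measured, fewer cells of a type and less RNA per cell cannot be told apart.

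**Figure D2:**
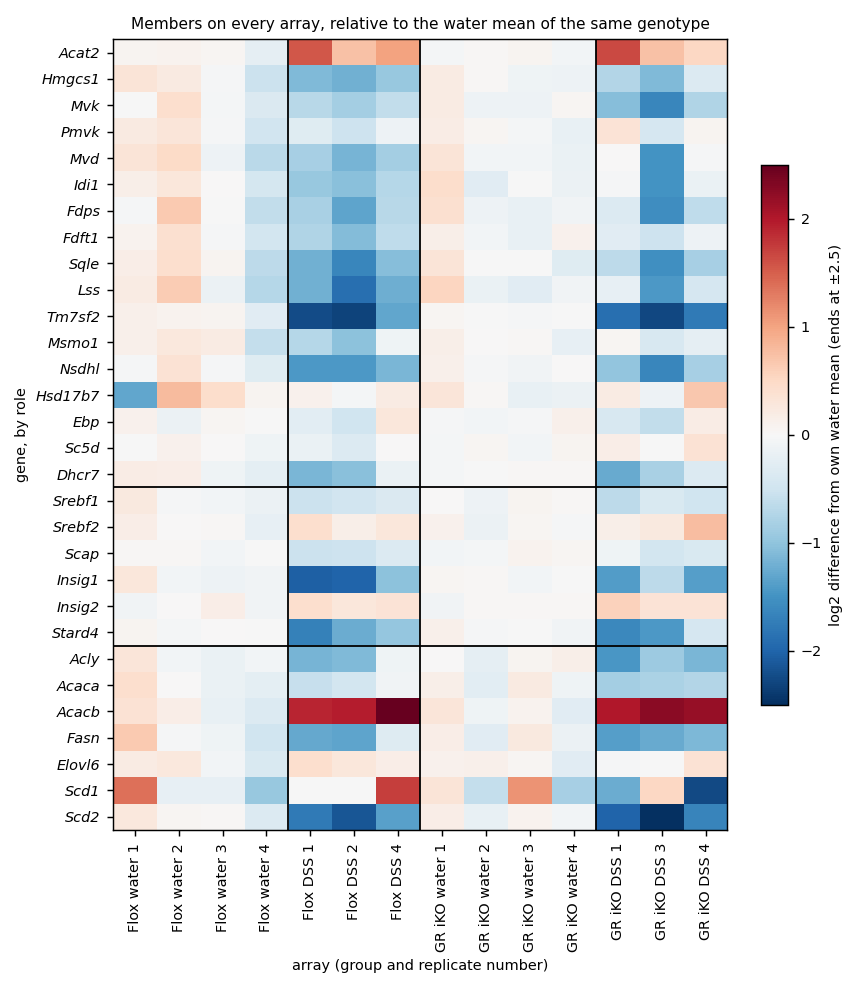
Each member (rows, by role) on each of the 14 arrays (columns), as the log2 difference from the mean of the water arrays of the same genotype. Blue is lower and red is higher, and the colour scale ends at ±2.5. Blue fills most rows of the 6 DSS columns, red marks Acat2 and Acacb (in Flox not with spike-in scaling), and the sterol rows are darkest on Flox DSS 2 and GR iKO DSS 3.

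The early steps of the mevalonate pathway moved unequally. Acat2, the cytosolic thiolase that joins 2 acetyl-CoA molecules, went against its pathway. Its level was −1.69, −1.66, −1.70 and −1.97 in Flox water and −0.19, −1.02 and −0.74 in Flox DSS. In GR iKO it was −1.68, −1.61, −1.57 and −1.71 on water and 0.01, −0.91 and −1.12 on DSS. All 6 DSS arrays lay above all 8 water arrays, and the rise was 1.10 ± 0.23 in Flox (2.15-fold, adjusted p = 0.00181) and 0.97 ± 0.23 in GR iKO (1.96-fold, adjusted p = 0.00538), though with spike-in scaling the Flox value was −1.26 and the GR iKO value 0.00 (adjusted p = 0.994, not called). Acat3, a near-identical neighbour on chromosome 17, had a probe that rose by 1.38 ± 0.22 (adjusted p = 0.000353) and 0.99 ± 0.22 (adjusted p = 0.00397), so signal shared between both genes cannot be told apart. Hmgcs1, which makes hydroxymethylglutaryl-CoA, ran from 4.88 to 5.76 in Flox water and from 4.22 to 4.48 in Flox DSS, a fall of 1.09 ± 0.28 (adjusted p = 0.00707) to 47.1% of the water level. In GR iKO it ran from 5.32 to 5.64 on water and from 4.34 to 5.11 on DSS, also without overlap, but its difference of −0.73 ± 0.28 missed the threshold (adjusted p = 0.0571). A further Hmgcs1 probe was called lower in both genotypes, at −1.77 ± 0.23 and −0.99 ± 0.23 (adjusted p = 9.57e-05 and 0.00584).

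Of the kinases and the decarboxylase that activate mevalonate, Mvk fell by 0.72 ± 0.26 in Flox (adjusted p = 0.0366) and by 1.15 ± 0.26 in GR iKO (adjusted p = 0.0042), to 60.7% and 45.1% of water. Pmvk differed by −0.31 ± 0.26 and 0.00 ± 0.26 and Mvd by −0.95 ± 0.40 and −0.51 ± 0.40, none of them called. Idi1, the isomerase of isopentenyl pyrophosphate, stood at the threshold in Flox (−0.90 ± 0.35, adjusted p = 0.0496) and was not called in GR iKO (−0.56 ± 0.35). Its call was lost when any of 9 single arrays was left out, although another Idi1 probe gave −1.34 ± 0.35 in Flox (adjusted p = 0.00746). Fdps, which makes farnesyl pyrophosphate, differed by −0.94 ± 0.40 and −0.84 ± 0.40 without a call, even though in both genotypes all DSS arrays lay below all water arrays.

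Each of the enzymes from squalene to lanosterol was called lower in Flox, and Sqle also in GR iKO. Fdft1, squalene synthase, fell in Flox by 0.83 ± 0.25 (adjusted p = 0.0175) and differed by −0.30 ± 0.25 in GR iKO. A further Fdft1 probe went the other way without a call, at 0.22 ± 0.48 and 0.51 ± 0.48. Sqle, squalene epoxidase, ran from 2.50 to 3.57 in Flox water, 1.52 to 2.08 in Flox DSS, 3.03 to 3.65 in GR iKO water and 1.80 to 2.68 in GR iKO DSS, with no overlap between DSS and water in either genotype. It fell by 1.30 ± 0.35 in Flox (to 40.7%, adjusted p = 0.00885) and by 1.01 ± 0.35 in GR iKO (to 49.7%, adjusted p = 0.0364). Lss, lanosterol synthase, fell in Flox by 1.43 ± 0.45 (adjusted p = 0.0203) and differed by −0.68 ± 0.45 in GR iKO, where the arrays overlapped.

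Tm7sf2, a sterol reductase that acts on the first products of lanosterol, showed the largest fall of the sterol enzymes. It was 3.10, 3.08, 3.05 and 2.70 in Flox water and 0.74, 0.67 and 1.69 in Flox DSS. In GR iKO it was 3.18, 3.12, 3.09 and 3.11 on water and 1.25, 0.86 and 1.37 on DSS. Flox water 4 lay below the other water arrays, and every DSS array lay at least 1 log2 unit below all water arrays. The fall was 1.95 ± 0.22 in Flox (to 25.9%, adjusted p = 2.82e-05) and 1.97 ± 0.22 in GR iKO (to 25.5%, adjusted p = 4.48e-05).

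Among the enzymes that strip methyl groups from the sterol ring, Nsdhl fell by 1.34 ± 0.22 in Flox (adjusted p = 0.000466) and by 1.15 ± 0.22 in GR iKO (adjusted p = 0.00176), and 2 further Nsdhl probes gave −1.41 and −1.39 in Flox and −1.23 and −1.24 in GR iKO. Msmo1 (−0.61 ± 0.30 and −0.19 ± 0.30) and Hsd17b7 (0.09 ± 0.57 and 0.25 ± 0.57) were not called, and a further Hsd17b7 probe lay at −0.27 ± 0.28 in Flox. The first Hsd17b7 probe was at −1.12 on Flox water 1 against 0.24 to 0.97 on the other Flox water arrays. The late isomerase Ebp (−0.17 ± 0.19 and −0.28 ± 0.19) and desaturase Sc5d (−0.16 ± 0.13 and 0.17 ± 0.13) were not called either. Dhcr7, the final reductase of one branch, fell by 0.78 ± 0.24 in Flox (adjusted p = 0.017) and by 0.80 ± 0.24 in GR iKO (adjusted p = 0.0183). Flox DSS 4, at 3.93, lay within the Flox water range of 3.85 to 4.28, while a further Dhcr7 probe fell by 1.26 ± 0.20 and 0.90 ± 0.20. Among the falls in these enzymes, Flox calls of Hmgcs1, Mvk, Idi1, Fdft1, Sqle, Lss and Dhcr7 ended without Flox DSS 2, and all of these but Hmgcs1 and Sqle ended also without Flox DSS 1. Mvk and Idi1 were lost in addition without Flox DSS 4 or Flox water 1. In GR iKO the Sqle call ended without GR iKO DSS 3 or 4, GR iKO water 1 or 2, or Flox DSS 1 or 2, and that of Dhcr7 without GR iKO DSS 1 or 3.

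Among the regulators, Insig1 was called lower and Insig2 higher in both genotypes, with Insig2 below 0 under spike-in scaling. Insig1, itself a classical SREBP target, was −0.40, −0.73, −0.81 and −0.75 in Flox water and −2.71, −2.67 and −1.69 in Flox DSS. The GR iKO values were −0.68, −0.71, −0.79 and −0.74 on water and −2.13, −1.38 and −2.10 on DSS. All 6 DSS arrays lay below all 8 water arrays. Insig1 fell by 1.69 ± 0.23 in Flox (to 31.1%, adjusted p = 0.000125) and by 1.14 ± 0.23 in GR iKO (to 45.4%, adjusted p = 0.00239).

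Insig2, the partner of Insig1 that does not depend on SREBPs in the same way, moved up by a smaller amount. It was 1.70, 1.79, 1.94 and 1.70 in Flox water and 2.20, 2.06 and 2.13 in Flox DSS, and in GR iKO 1.71, 1.82, 1.83 and 1.82 on water and 2.36, 2.13 and 2.14 on DSS. The DSS arrays again lay apart from the water arrays. The rise was 0.35 ± 0.12 (1.27-fold, adjusted p = 0.0305) in Flox and 0.42 ± 0.12 (1.34-fold, adjusted p = 0.0158) in GR iKO, though with spike-in scaling the values were −2.01 and −0.54. The Flox call ended without any 1 of Flox DSS 1, 2 or 4 or Flox water 1 or 4, and the GR iKO call without GR iKO DSS 1. A further Insig2 probe rose by 0.53 ± 0.12 (adjusted p = 0.00415) and 0.73 ± 0.12 (adjusted p = 0.000855).

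Stard4, a cytosolic carrier that moves cholesterol between membranes, fell by 1.29 ± 0.22 in Flox (to 40.8%, adjusted p = 0.000518) and by 1.16 ± 0.22 in GR iKO (to 44.9%, adjusted p = 0.00155), and both of its other probes were called lower too. Smaller falls were seen for Srebf1, the SREBP gene tied to fatty acid synthesis (0.46 ± 0.15 and 0.51 ± 0.15, adjusted p = 0.0213 and 0.0157), and for Scap (0.47 ± 0.11 and 0.32 ± 0.11, adjusted p = 0.00511 and 0.0404). The Srebf1 calls ended without Flox DSS 1 or 2 in Flox and without GR iKO DSS 1 or 4 in GR iKO. The Scap call in GR iKO ended without any 1 of 7 arrays, among them GR iKO DSS 3 and 4. Srebf2, the SREBP gene tied to sterol synthesis, was not called, at 0.28 ± 0.17 in Flox and 0.39 ± 0.17 in GR iKO (adjusted p = 0.189 and 0.0894). A dimmer Srebf2 probe, well above background on 7 arrays, went the other way and was called in Flox (−0.92 ± 0.28, adjusted p = 0.0163), so the direction of Srebf2 differed between its probes.

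**Figure D3:**
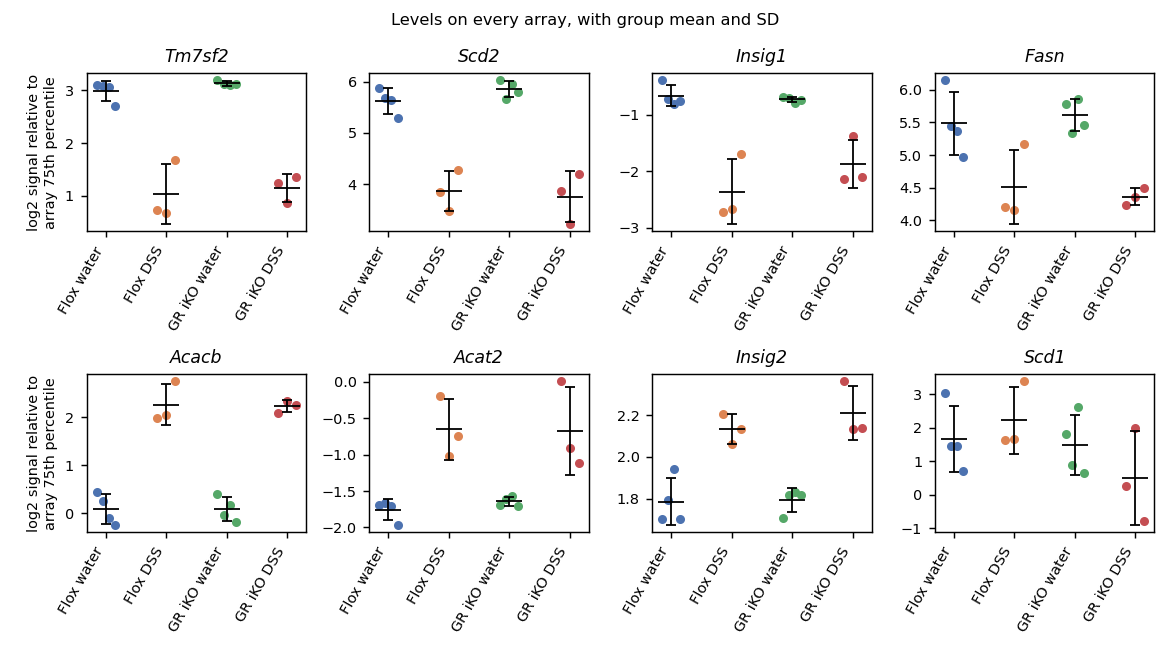
Log2 signal relative to the array's 75th percentile for the members with the largest changes in either direction and for Scd1. Points are single arrays, horizontal ticks are group means and bars are ± SD (n = 4 on water, n = 3 on DSS). DSS arrays lie clear of water arrays of the same genotype for Tm7sf2, Scd2, Insig1, Acacb, Acat2 and Insig2, whereas Flox arrays of Fasn overlap and Scd1 scatters in all groups; scaling to spike-in controls turned the Flox rises of Acacb, Acat2 and Insig2 negative.

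In fatty acid synthesis 1 gene for acetyl-CoA carboxylase rose, and the other was called lower in GR iKO alone. Acacb, whose product sits at mitochondria and is known for restraining fatty acid import, was 0.44, 0.25, −0.10 and −0.25 in Flox water and 1.99, 2.05 and 2.75 in Flox DSS. The GR iKO levels were 0.39, −0.03, 0.17 and −0.19 on water and 2.09, 2.35 and 2.27 on DSS. Every DSS array lay more than 1.5 log2 units above every water array. The rise, the largest of any member in both genotypes, was 2.18 ± 0.28 in Flox (4.54-fold, adjusted p = 7.05e-05) and 2.15 ± 0.28 in GR iKO (4.44-fold, adjusted p = 0.000129), though with spike-in scaling the Flox value was −0.18. Acaca, which encodes the cytosolic enzyme of fatty acid synthesis, differed by −0.37 ± 0.24 in Flox (adjusted p = 0.225) and fell by 0.79 ± 0.24 in GR iKO (adjusted p = 0.0216). That call ended without any 1 of the GR iKO DSS arrays. None of the 3 further Acaca probes was called, and 1 of them lay above 0 in Flox (0.80 ± 0.38).

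Acly, which supplies cytosolic acetyl-CoA from citrate, fell by 0.79 ± 0.24 in Flox (adjusted p = 0.0186) and by 1.17 ± 0.24 in GR iKO (adjusted p = 0.0028). Fasn, fatty acid synthase, was 6.14, 5.45, 5.37 and 4.98 in Flox water and 4.20, 4.16 and 5.17 in Flox DSS. In GR iKO it was 5.78, 5.34, 5.86 and 5.47 on water and 4.24, 4.36 and 4.50 on DSS. Flox DSS 4 lay within the Flox water range, while the GR iKO groups did not overlap. Fasn fell by 0.97 ± 0.36 in Flox (to 50.9%, adjusted p = 0.0431) and by 1.25 ± 0.36 in GR iKO (to 42.1%, adjusted p = 0.0169). Its Flox call ended without any 1 of 6 arrays, among them Flox DSS 1 and 2, its GR iKO call ended without GR iKO DSS 1 or 4, and a further Fasn probe gave −0.66 ± 0.48 and −1.11 ± 0.48 without a call. The Flox call of Acly ended without Flox DSS 1 or 2, and its level on Flox DSS 4, 1.63, lay within the Flox water range of 1.57 to 2.04. Elovl6, which elongates palmitate, differed by 0.29 ± 0.23 and 0.11 ± 0.23 and was not called.

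The stearoyl-CoA desaturases make monounsaturated fatty acids, and of these Scd2 was called lower in both genotypes and Scd1 in neither. Scd2 was 5.87, 5.68, 5.64 and 5.28 in Flox water and 3.85, 3.48 and 4.27 in Flox DSS. In GR iKO it was 6.02, 5.66, 5.94 and 5.79 on water and 3.86, 3.22 and 4.20 on DSS. All 6 DSS arrays lay below all 8 water arrays, and the fall was 1.75 ± 0.25 in Flox (to 29.6%, adjusted p = 0.000166) and 2.09 ± 0.25 in GR iKO (to 23.4%, adjusted p = 8.12e-05). Scd1 had the widest spread of all members in each of the 4 groups, with SDs of 0.98, 1.00, 0.90 and 1.40 in Flox water, Flox DSS, GR iKO water and GR iKO DSS. It was 3.02, 1.44, 1.45 and 0.70 in Flox water and 1.63, 1.64 and 3.38 in Flox DSS, and in GR iKO 1.80, 0.88, 2.61 and 0.64 on water and 0.25, 2.00 and −0.78 on DSS. The groups overlapped, and its differences of 0.57 ± 0.90 and −0.99 ± 0.90 were not called, with 95% intervals of −1.39 to 2.52 and −2.95 to 0.96, the latter of which holds the Scd2 difference. Beside these values, the adipocyte marker Adipoq was 2.44, 1.17, 1.30 and 0.82 in Flox water and 1.55, 3.54 and 2.65 in Flox DSS, and 2.31, 1.98, 2.39 and 0.84 on water and −1.56, 1.92 and −1.87 on DSS in GR iKO. Scd1 and Adipoq were both lowest on GR iKO DSS 1 and 4 and highest among GR iKO DSS arrays on replicate 3. The part of fat tissue in the Scd1 values was not tested.

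Other genes of these routes were described from lists. Of 8 tested genes of other sterol and isoprenoid steps, 4 were called lower and 2 higher in Flox, and 3 lower and 2 higher in GR iKO. Pdss1, of ubiquinone side chain synthesis, fell by 1.62 ± 0.31 and 1.42 ± 0.31 (adjusted p = 0.0011 and 0.00341), Fdx1, a ferredoxin, by 0.78 ± 0.17 and 0.89 ± 0.17 (adjusted p = 0.00237 and 0.00143), and Por, the reductase that feeds electrons to sterol enzymes, rose by 0.86 ± 0.13 and 0.62 ± 0.13 (adjusted p = 0.000278 and 0.00331). Of 21 genes of fatty acid supply, elongation and glycerolipid assembly, 10 were lower and 2 higher in Flox and 7 lower and 1 higher in GR iKO, with medians of −0.50 and −0.44. The largest falls were those of Acss2, which makes acetyl-CoA from acetate (2.73 ± 0.24 and 3.14 ± 0.24, adjusted p = 7.76e-06 and 5.42e-06), of Mlxipl, the carbohydrate response factor (2.43 ± 0.29 and 2.16 ± 0.29), and of the desaturase Fads2 (1.54 ± 0.36 and 1.61 ± 0.36). Genes of sterol efflux, storage and uptake were mixed, with 3 higher and 4 lower of 15 in Flox and 2 higher and 2 lower in GR iKO. The efflux pumps Abca1 (0.98 ± 0.22 and 1.24 ± 0.22) and Abcg1 (0.87 ± 0.26 and 1.40 ± 0.26) rose and the lysosomal sterol carrier Npc2 fell by 1.01 ± 0.19 and 0.78 ± 0.19. Of 10 genes of SREBP processing and sterol sensing, 2 were lower in Flox, and 1 was lower and 1 higher in GR iKO.

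Markers of the cells that make up the colon moved in the same comparisons. Of 12 epithelial markers, 6 were lower and 1 higher in Flox, while 1 was lower and 1 higher in GR iKO, with medians of −0.44 and 0.10. Their summed signal, in units of the 75th percentile, ran from 1217 to 1498 in Flox water, 1066 to 1687 in Flox DSS, 1266 to 1504 in GR iKO water and 1296 to 1953 in GR iKO DSS. Markers of dividing cells were lower for 7 of 8 genes in Flox and for 0 of 8 in GR iKO, with sums of 33.1 to 47.7, 14.9 to 19.2, 29.9 to 46.9 and 12.2 to 37.3 in the same order of groups. All 8 fibroblast and matrix markers were higher in both genotypes, smooth muscle markers were higher for 7 of 8 in Flox and 1 of 8 in GR iKO, and macrophage markers for 7 and 9 of 10. Of the glia and myelin markers 4 of 6 were higher and 1 lower in each genotype. Neutrophil markers were higher for 7 of 8 in Flox and 8 of 8 in GR iKO. Their summed signal was 0.137 to 0.456 in Flox water, 24.4 to 67.3 in Flox DSS, 0.192 to 0.572 in GR iKO water and 84.7 to 291 in GR iKO DSS. S100a8 was well above background on 3 of the 8 water arrays. Adipocyte markers were higher for 4 of 8 in Flox and lower for 3 of 8 in GR iKO, with sums of 35.2 to 83.4, 110 to 249, 46.2 to 88.6 and 30.04 to 151. The part of these cell types in the lipid synthesis changes was not tested.

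**Figure D4:**
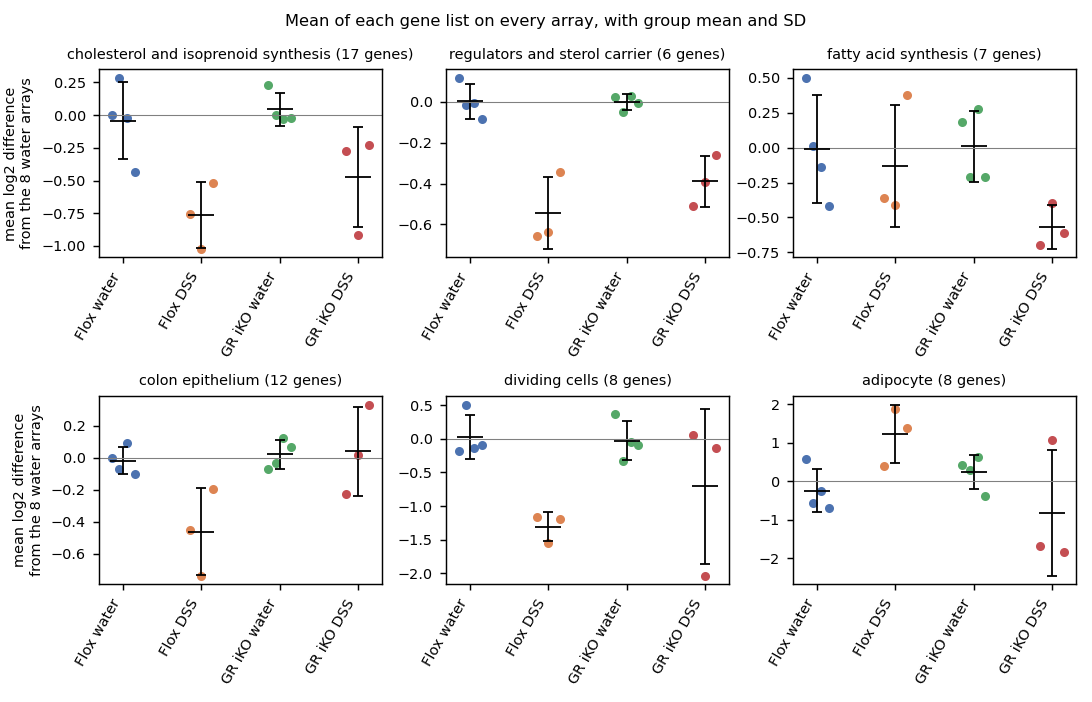
Mean over each gene list of the log2 difference from the 8 water arrays, for the 3 roles of lipid synthesis genes (top) and for markers of epithelium, dividing cells and adipocytes (bottom). Points are arrays, ticks are group means and bars are ± SD (n = 4 on water, n = 3 on DSS). Regulators and sterol enzymes lie lower on DSS than on water arrays of the same genotype, fatty acid enzymes overlap in Flox, and GR iKO DSS 3, the lowest GR iKO array for sterol enzymes at −0.92, is also the lowest for dividing cells at −2.04.

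Within GR iKO DSS the sterol enzymes averaged −0.28, −0.92 and −0.23 relative to the water arrays on replicates 1, 3 and 4. On the same arrays dividing cell markers averaged 0.06, −2.04 and −0.14 and epithelial markers −0.23, 0.02 and 0.33. In Flox DSS the sterol enzymes averaged −0.76, −1.02 and −0.52 on replicates 1, 2 and 4, and dividing cell markers −1.16, −1.55 and −1.20. GR iKO DSS 3 was the lowest of its group for 15 of 17 sterol enzymes, and Flox DSS 2 likewise for 15 of 17. In GR iKO DSS the fatty acid enzymes were ordered otherwise, with GR iKO DSS 1 lowest for 5 of 7. In Flox DSS they averaged −0.36, −0.41 and 0.38 on replicates 1, 2 and 4, the same order as the sterol enzymes. By gene, Flox DSS 1 was lowest for 4 of 7 fatty acid enzymes and Flox DSS 2 for 2 of 7. Water arrays varied too. Flox water 4 was the lowest of its group for 15 of 17 sterol enzymes and 6 of 7 fatty acid enzymes. Without that array 19 members were called lower and 2 higher in Flox (23.5% and 24.4% of genes). The median SD of the members was 0.30 in Flox water, 0.28 in Flox DSS, 0.15 in GR iKO water and 0.40 in GR iKO DSS.

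To examine whether epithelial GR altered these genes, both genotypes were compared within each treatment, and their DSS responses were compared by an interaction term. On water 0 of 30 members were called (0.0257% of genes called), 0 of 30 had an unadjusted p under 0.05 (2.8% of genes), and differences ran from −0.17 to 0.31. Scap was the 1 member whose GR iKO water arrays all lay above the Flox water arrays (1.47% of genes), and for 0 members they all lay below (0.914%). The 95% intervals had a median half-width of 0.32, so changes of that size could have been missed. For Acacb the difference on water was 0.00, with an interval of −0.36 to 0.36, and for Insig1 −0.06, with an interval of −0.36 to 0.24.

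On DSS 0 of 30 members were called (0.0257% of genes called) and 1 of 30 had an unadjusted p under 0.05 (19.6% of genes). That member was Sc5d, the sterol desaturase, at 2.86, 2.69 and 3.04 in Flox DSS and 3.30, 3.14 and 3.51 in GR iKO DSS, without overlap. Its difference was 0.45 ± 0.16 (95% interval 0.10 to 0.81, adjusted p = 0.181). With equal weights for all arrays, and with a weight for each array, Sc5d was called (0.45 ± 0.13, adjusted p = 0.0363, and 0.58 ± 0.14, adjusted p = 0.0232), the 1 member called higher where 6.40% and 5.55% of genes were called higher and 8.43% and 8.24% lower. In GR iKO DSS, Sc5d and Fdft1 lay wholly above Flox DSS (10.7% of genes) and Acaca wholly below (13.6%). Differences lay above 0 for 18 of 30 members (50% of genes), for 13 of 17 sterol enzymes (median 0.39) and below 0 for 7 of 7 fatty acid enzymes (median −0.15), none of them called. On water 15 of 17 sterol enzymes (median 0.10) and 4 of 7 fatty acid enzymes also lay above 0 without a call. Of 30 members, 8 lay below the median of all genes on water, and 22 did when Flox water 4 was left out. On DSS the median genotype differences of markers were 0.58 for epithelium, 0.66 for dividing cells, 0.13 for macrophages and 2.68 for neutrophils. They were −0.29 for fibroblast and matrix, −0.79 for glia and myelin, −1.34 for smooth muscle and −1.91 for adipocytes. No marker was called, and their part in the genotype differences was not tested. The half-width of the 95% intervals on DSS was 0.69 at the median. Scd1 had the widest interval, from −4.23 to 0.77 around −1.73.

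The DSS response of GR iKO minus that of Flox was called for 0 of 30 members and for 0% of genes, and 0 of 30 had an unadjusted p under 0.05 (16.2% of genes). Estimates ran from −1.56 for Scd1 to 0.75 for Lss, and the smallest adjusted p was 0.411. The genes called in 1 genotype alone were therefore not shown to differ between genotypes. The interaction was 0.36 (95% interval −0.50 to 1.22) for Hmgcs1, 0.75 (−0.64 to 2.14) for Lss, 0.52 (−0.25 to 1.30) for Fdft1, 0.34 (−0.73 to 1.41) for Idi1 and −0.42 (−1.16 to 0.33) for Acaca. For the members with the largest changes it was −0.02 (−0.68 to 0.64) for Tm7sf2, −0.34 (−1.12 to 0.43) for Scd2 and −0.03 (−0.88 to 0.82) for Acacb.

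**Figure D5:**
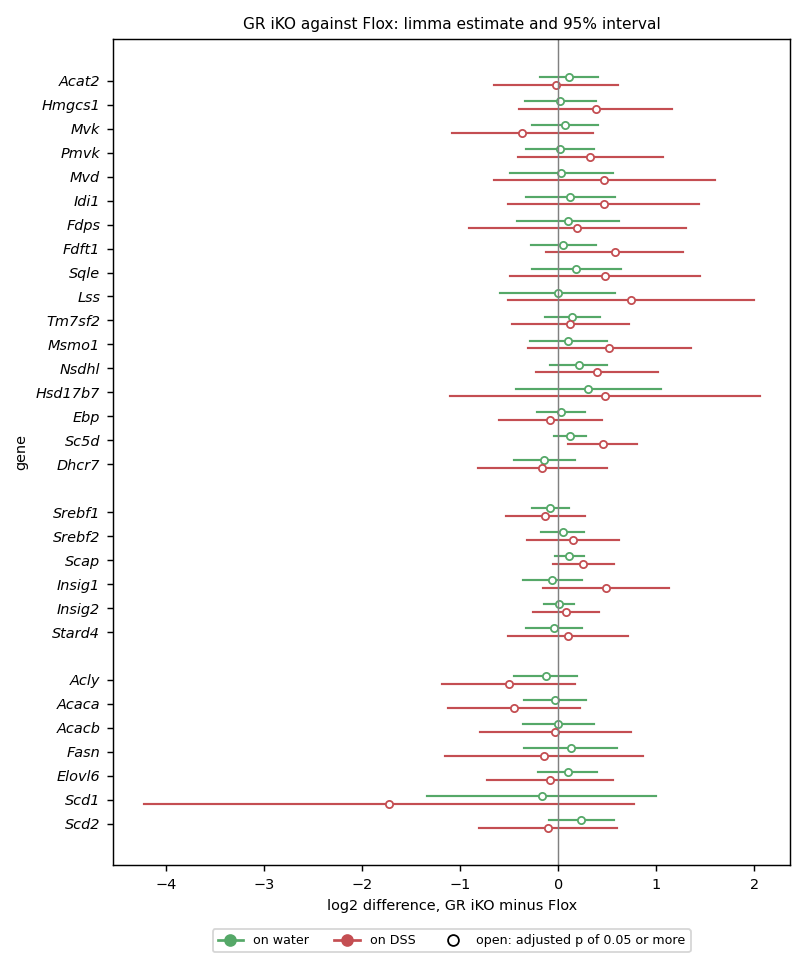
GR iKO against Flox for the 30 members, on water and on DSS. Points are limma log2 differences, bars are 95% intervals, and open points have an adjusted p of 0.05 or more. All 60 points are open. Intervals are wider on DSS than on water for every member because DSS arrays were fewer and had a lower weight (0.495 against 1.70). The ratio of their widths therefore does not measure each member's own spread on DSS.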

How the data were processed

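Per the labels, 500 ng of colon RNA per sample was labelled with Cy3 for Agilent whole mouse genome arrays. Groups were taken from the sample titles, and replicates are separate samples of a group, so p-values measure the spread between these samples. The authors deposited scanner output from Agilent Feature Extraction 12.0.0.7, which holds background-subtracted spot intensity on a linear scale, unscaled between arrays, and a table of log2 values with equal quantiles on every array (median 6.05), used as an alternative. The submitters' processing notes also name Partek 6.6, with no role given, and the test applied to the arrays is not given in the sources used here.

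In the present work control spots and outlier flags were left out, spots of a probe were averaged, and log2(processed intensity) minus the 75th percentile of its array was analysed. Probes well above background on at least 3 of 14 arrays were tested (29520 probes). Accessions were matched to RefSeq symbols of GRCm38.p6 for 28223 of 29245 probes with one, and each gene was read from its brightest probe on average over the arrays. Group means of all 14 arrays were fitted with limma 3.58.1 in R 4.3.3, with array weights estimated by treatment (0.495 on DSS, 1.70 on water) and Benjamini-Hochberg adjustment over all tested probes. Tests were two-sided. Adjusted p values are those of limma. The script was tested on simulated data. The members, the gene lists and the rule for named genes were chosen with earlier results of these data known, so they are no independent evidence. All 30 members are named, and values on every array are given for the 3 largest rises and falls with DSS in each genotype. Values of Scd1 and Sc5d on every array were added after they were seen. Of the other lists, the up to 3 genes with the largest changes called in both genotypes are named. Deviations from group means correlated at −0.23 to 0.31 between samples with the same replicate number. They correlated at −0.20 to 0.31 between samples on the same slide and at −0.28 to 0.25 between samples sharing neither. The main fit is unpaired, and replicate and slide blocks were alternatives. The number of arrays limits the precision of every value. Alternatives were quantile, normexp (on median signals), deposited-table and spike-in values, other filters, weights, blocks, probe averaging and eBayes settings, and omission of single arrays. The scanner grid is on mm9, so no coordinates were taken from it, and where the Nr3c1 probe lies relative to the floxed part was not determined.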

Additional observations from a re-analysis of the deposited data

Results flagged for a closer look

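Among 60 groups of 4 water arrays, 1 for each member and genotype, 4 had an array far from the other 3 by Dixon's test at 95%, where chance flags about 1 in 20 groups. Acat2 on Flox water 4 was at −1.97 against −1.70 to −1.66 on the other Flox water arrays. Tm7sf2 on Flox water 4 was at 2.70 against 3.05 to 3.10. Msmo1 on Flox water 4 was at 4.73 against 5.46 to 5.60. Insig2 on GR iKO water 1 was at 1.71 against 1.82 to 1.83. Groups of 3 DSS arrays were not tested.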

How the results depend on the processing

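The 5 counts of called members were computed under 27 alternatives. With 1 array left out at a time, the count of called members ran from 8 to 21 in Flox and from 11 to 17 in GR iKO, and stayed at 0 in the genotype comparisons and the interaction. In Flox the count fell to 10 without Flox DSS replicate 1 (14.7% of genes lower, 18.3% higher) and to 8 without Flox DSS replicate 2 (15.6% and 19.5%). It reached 21 without Flox water replicate 4 (23.5% and 24.4%) or GR iKO DSS replicate 3 (26.5% and 25.9%). The GR iKO count was 11 without GR iKO DSS replicate 1 (17.3% and 19.5%) or 4 (16.2% and 17.4%). It was 17 without Flox water replicate 1 (19.7% and 21.5%). The cause of these changes was not tested. The count for GR iKO against Flox on DSS became 1 with equal weights (8.43% of genes lower, 6.40% higher) and with a weight for each array (8.24% and 5.55%). With scaling to spike-in controls the interaction count became 6 of 30, where 27.6% of genes were called. That scaling moved the median of all genes to −2.39 in Flox and −0.96 in GR iKO with DSS. It gave 28 members lower and 0 higher in Flox (83.9% and 0.901% of genes), and 20 lower and 1 higher in GR iKO (42.5% and 3.11%). It turned the Flox differences of Acat2 (−1.26), Insig2 (−2.01) and Acacb (−0.18), the GR iKO difference of Insig2 (−0.54) and the DSS difference of Nr3c1 between genotypes (0.39), because the scale itself moved, and ended the GR iKO call of Acat2 (0.00). The Nr3c1 difference on water lost its call with equal weights (adjusted p = 0.0968), the replicate block (0.17), the slide block (0.152), only the groups compared (0.293), probe averaging (0.109) and spike-in scaling. Normexp correction moved the median of all genes to 0.12 in Flox. With the replicate block 3 members were higher and 17 lower in Flox (25.8% and 24.4% of genes). In GR iKO 3 were higher and 12 lower with that block (22.4% and 20.5%), which ended the call of Scap in GR iKO. With the slide block 3 were higher and 14 lower in Flox (25.9% and 24.4% of genes), and 3 higher and 12 lower in GR iKO (22.3% and 20.3%). The slide block ended the calls of Mvk and Idi1 in Flox and of Scap in GR iKO. Over all alternatives 6 of 19 Flox calls and 8 of 16 GR iKO calls held, and no alternative other than spike-in scaling turned the direction of a called member. The share of calls held was not computed over all genes. With 3 DSS arrays per genotype, genotype differences on DSS under about 0.69 log2 units were within the interval of a typical member.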
